A study of Mus musculus with 40 samples.

Results

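The p53 pathway and cell cycle inhibitor genes described here are 10 genes, chosen by symbol (Trp53, Mdm2, Cdkn1a, Cdkn1b, Cdkn2a, Cdkn2b, Bbc3, Bax, Ccng1 and Sesn2) among the 14318 genes of the deposited table, and all 10 were present in it. Bulk RNA-seq was performed on primary mammary tumors of lactating wild-type BALB/c females (mated at 8 weeks of age) that had received 4T1 or 66cl4 cells through the milk ducts, and the tumors were collected 5 weeks later. Both are mouse mammary carcinoma lines of BALB/c background, both expressed luciferase, and each model is 1 line grown in an immunocompetent host whose own stromal and immune cells are part of every sample. Within each model, mice were left untreated or received, over the last 2 weeks, 200 µg of an antibody against the checkpoint receptor PD-1 (anti-PD-1, weekly), 1 mg of chitin particles (given to block chitinase-like proteins, every 3 days), or both (chitin + anti-PD-1). There were 5 tumors in each of the 8 groups except untreated 4T1, where 4 had values, which gives 19 4T1 and 20 66cl4 tumors. Untreated 4T1 tumor 3 has no column, and the paper states that it was taken out as an outlier with degraded RNA.

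p53, the product of Trp53, is a transcription factor that DNA damage and other stresses stabilize. It is kept low by the ubiquitin ligase Mdm2, which is itself a p53 target, and it switches on genes that arrest the cell cycle (Cdkn1a), start mitochondrial apoptosis (Bbc3, Bax) or act in stress control (Ccng1, Sesn2). The CDK inhibitors Cdkn1b, Cdkn2a and Cdkn2b hold cells in G1 through inputs other than p53, and 1 product of Cdkn2a, p19Arf, restrains Mdm2. 4T1 cells have been described as lacking functional p53 protein, and neither protein nor the Trp53 sequence was measured here. An RNA level of Trp53 is not a measure of p53 activity.

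The 250 bases upstream of a RefSeq transcript start hold the 10-base p53 half-site consensus in 5 of the 10 genes, and those 5 stretches are shown because p53 binds DNA through pairs of this motif. A match is a description and not a binding site, and the p53-responsive promoter of Mdm2 lies in its first intron, outside the stretch shown. They were taken from RefSeq (GRCm38.p6, the mm10 build that the authors aligned to), all 10 genes matched a window, each is written 5′ to 3′ on the strand of the gene, and the capitals mark the half-sites.
Trp53 (chr11:69580109-69580358, plus strand): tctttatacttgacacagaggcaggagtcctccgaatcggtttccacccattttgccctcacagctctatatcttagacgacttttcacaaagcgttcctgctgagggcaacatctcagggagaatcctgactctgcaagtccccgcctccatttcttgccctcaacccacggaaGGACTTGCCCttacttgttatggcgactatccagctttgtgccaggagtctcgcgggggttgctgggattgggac
Mdm2 (chr10:117710759-117711008, minus strand): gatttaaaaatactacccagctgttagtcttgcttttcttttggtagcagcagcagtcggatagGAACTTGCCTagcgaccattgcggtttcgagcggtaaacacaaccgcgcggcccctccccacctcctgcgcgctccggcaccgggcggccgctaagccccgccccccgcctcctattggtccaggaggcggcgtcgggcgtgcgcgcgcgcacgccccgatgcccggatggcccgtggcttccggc
Cdkn1a (chr17:29090729-29090978, plus strand): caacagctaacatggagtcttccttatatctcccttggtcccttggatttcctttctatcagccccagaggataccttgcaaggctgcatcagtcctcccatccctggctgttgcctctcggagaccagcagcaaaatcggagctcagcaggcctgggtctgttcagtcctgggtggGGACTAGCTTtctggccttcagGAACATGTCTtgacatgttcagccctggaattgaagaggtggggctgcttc
Bax (chr7:45466899-45467148, minus strand): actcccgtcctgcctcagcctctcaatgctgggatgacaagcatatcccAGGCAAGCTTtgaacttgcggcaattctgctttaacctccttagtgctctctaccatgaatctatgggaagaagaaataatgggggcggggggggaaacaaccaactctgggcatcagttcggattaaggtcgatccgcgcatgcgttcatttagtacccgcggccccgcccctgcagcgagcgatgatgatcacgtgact
Ccng1 (chr11:40755287-40755536, minus strand): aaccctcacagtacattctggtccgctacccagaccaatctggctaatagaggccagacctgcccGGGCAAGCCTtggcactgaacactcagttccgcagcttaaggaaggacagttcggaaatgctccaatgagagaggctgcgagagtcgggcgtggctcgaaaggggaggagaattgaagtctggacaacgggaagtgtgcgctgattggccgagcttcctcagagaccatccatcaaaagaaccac
The transcript start behind the window was the outer end of the gene in Mdm2 and Cdkn1a and lay inside it by 11 bases in Trp53, 5 in Bax and 23 in Ccng1, and distances are counted from that transcript start. The consensus reads the same on both strands, so each match counts for both. It lay 75 to 66 bases before the start in Trp53, 186 to 177 in Mdm2, 201 to 192 in Bax and 185 to 176 in Ccng1. Cdkn1a had 2 half-sites, at 73 to 64 and 51 to 42 bases before the start, with 12 bases between them. A second RefSeq start of Cdkn1a lies 2790 bases inside the gene, and its window, not shown, held no half-site. Among the 11334 genes of the table with a window, 842 (7.43%) held at least 1 half-site and 25 (0.221%) held 2. No match was found in these windows of Cdkn1b, Cdkn2a, Cdkn2b, Bbc3 and Sesn2, which says only that the letters are not in these 250 bases. The Bbc3 windows end at starts 1185, 1863 and 2033 bases inside the gene, so its outer end was not searched.

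Reads assigned to genes ranged from 5105898 to 14800352 per tumor (median 6590274), and the medians of the 66cl4 chitin and chitin + anti-PD-1 groups (10250227 and 8985408) were above those of the other groups. The 4T1 chitin group followed, with a median of 8759930. The other 4T1 medians were 6295440 untreated, 6164483 with anti-PD-1 and 6504793 with chitin + anti-PD-1. Every tumor correlated better with its own model (median r over all genes, 0.951 to 0.970 for 4T1 and 0.980 to 0.990 for 66cl4) than with the other. The models differed in cell type markers: Epcam, which defines epithelium, lay at 1958 to 10397 in 4T1 and 1.12 to 123 in 66cl4 (normalized counts), and 10 of 10 epithelial markers were higher in 4T1, whereas 10 of 10 macrophage markers were lower. In 66cl4 tumors Krt8 lay at 3152 to 5709, whereas Krt7, Krt19, Cldn3 and Cldn4 were at 0 in at least 1 tumor. As tumors were sequenced in bulk, fewer cells of a type and less RNA per cell cannot be told apart in any value below.

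4T1 and 66cl4 primary tumors were compared first. Of the 10 genes, 8 were lower in 4T1 than in 66cl4 tumors (Trp53, Mdm2, Cdkn1a, Cdkn1b, Bbc3, Bax, Ccng1 and Sesn2), 1 was higher (Cdkn2b) and Cdkn2a did not pass the test. The tests used limma on the deposited VST values, a log2-like scale, with Benjamini-Hochberg adjustment over all 14318 genes, and a call needed an adjusted p below 0.05. The median difference of the 10 genes was -0.52 VST units, and that of all genes was 0.015. Between these models much of the transcriptome differed: 38.0% of all genes were called lower in 4T1 and 40.8% higher, so that a call alone sets no gene apart. A difference of at least 1 VST unit downwards was reached by 3.11% of all genes and, among the 10, by Trp53. All 19 4T1 tumors lay below all 20 66cl4 tumors for Trp53 and Bbc3, as for 7.98% of all genes, and none of the 10 had all 4T1 tumors above, as 9.87% of all genes did. Normalized counts (reads of a tumor over its size factor) are given below for levels, and VST units for differences. VST units flatten differences, and on the log2(normalized count + 1) scale Bbc3, too, was lower in 4T1 by more than 1 (-1.01).

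**Figure D1:**
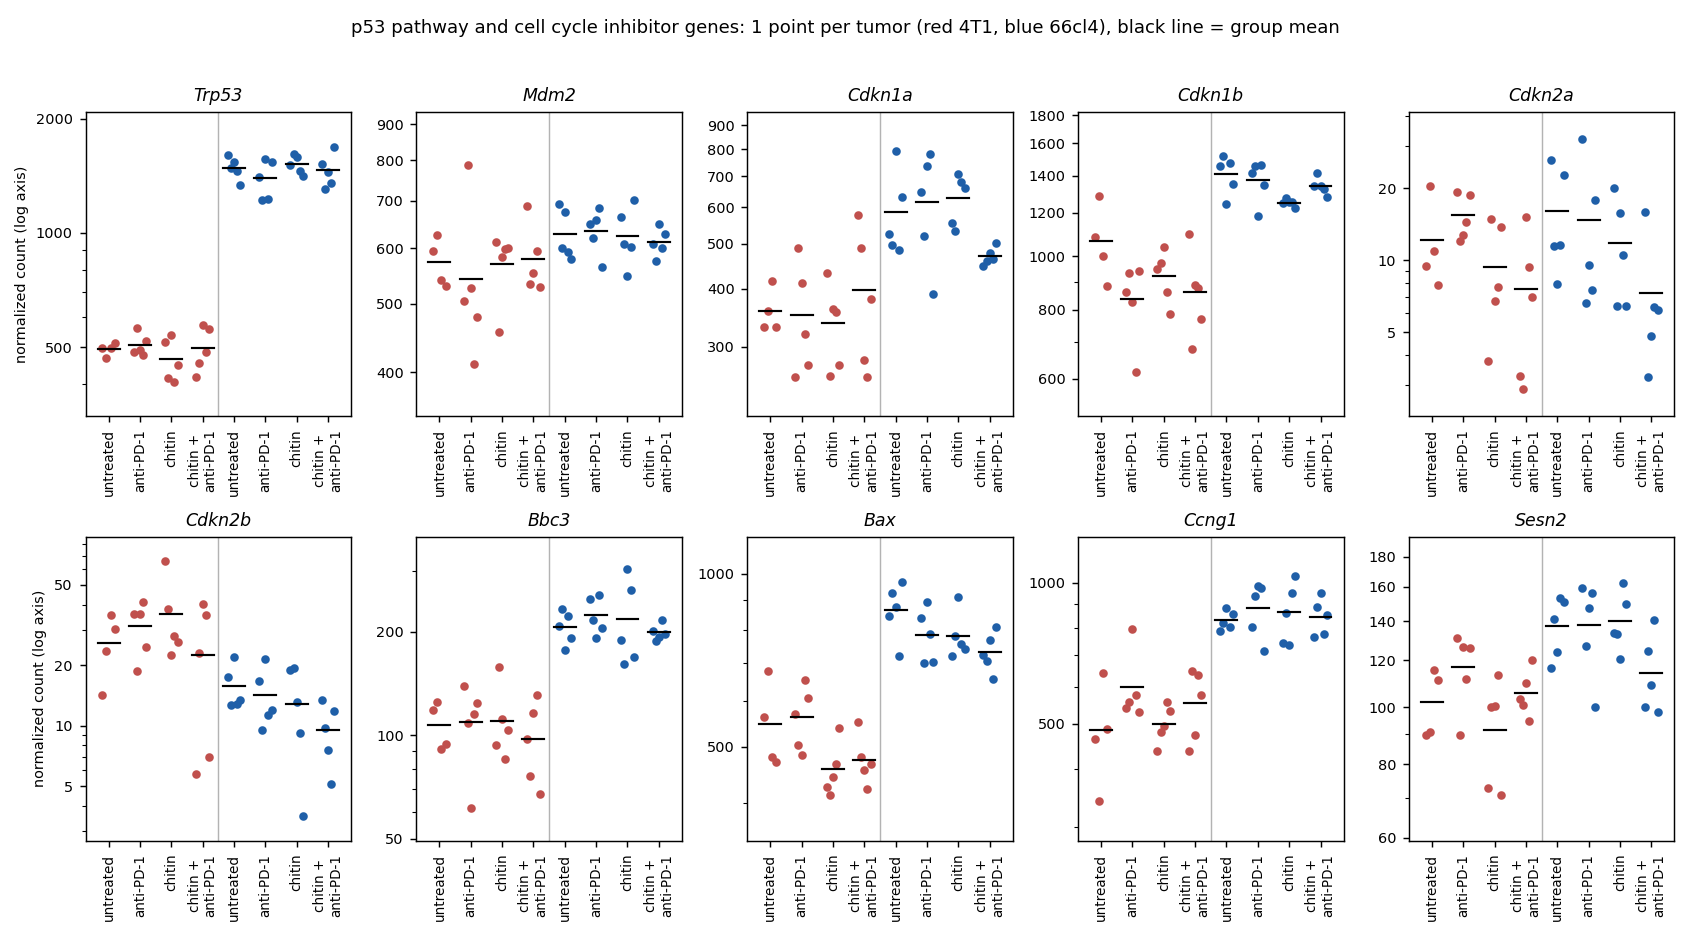
Normalized counts (log axis) of the 10 genes, with 1 point per tumor, by model (4T1 in red, left of the grey line, and 66cl4 in blue) and treatment, and the group mean as a black line. Trp53 lay at 405 to 571 in 4T1 and 1225 to 1688 in 66cl4 tumors, whereas the 2 models shared most of their range for Cdkn2a.

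Trp53 (chr11:69580348-69591873, plus strand), which encodes p53, showed the largest difference of the 10 genes. In 4T1 tumors its normalized counts were 498, 468, 496 and 512 in the untreated group, 484, 561, 490.1, 476 and 517 with anti-PD-1, 514, 415, 539, 405 and 447 with chitin, and 417, 454, 571, 484 and 559 with chitin + anti-PD-1. In 66cl4 tumors they were 1603, 1488, 1543, 1459 and 1341 in the untreated group, 1406, 1225, 1571, 1228 and 1541 with anti-PD-1, 1507, 1613, 1589, 1461 and 1409 with chitin, and 1517, 1306, 1452, 1358 and 1688 with chitin + anti-PD-1. No tumor of either model came near the other range, and the treatment groups within a model overlapped. The mean over the groups was 490.0 in 4T1 and 1465 in 66cl4, which is 2.99-fold higher in 66cl4. On the VST scale the difference (4T1 minus 66cl4) was -1.37 ± 0.0393 (SE), adjusted p = 2.53e-26 (limma), and ranked 86th by p among all genes. It ranged from -1.49 in chitin-treated to -1.27 in anti-PD-1-treated tumors and was called in all 4 treatments. Within each model, the coefficient of variation was 9.94% in 4T1 and 8.68% in 66cl4.

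Mdm2 (chr10:117688875-117710758, minus strand), the ligase that marks p53 for degradation, had normalized counts of 411 to 788 (median 552) in 4T1 and 547 to 702 (median 613) in 66cl4 tumors. The ranges overlapped, with 1 4T1 tumor (anti-PD-1 replicate 2) above every 66cl4 tumor and 9 below every one. The difference, -0.13 ± 0.0466 (SE), adjusted p = 0.0144 (limma), was the smallest of the 9 called and corresponds to 1.10-fold more in 66cl4. Within treatments it was called in the anti-PD-1 groups only (-0.21, 95% CI -0.40 to -0.025, adjusted p = 0.0469, limma), and that call was lost when any of 8 of the 10 tumors was left out (limma adjusted p 0.0589 to 0.199) and with only these 2 groups in the fit (limma adjusted p = 0.170). The normalized counts there were 505, 788, 526, 411 and 479.7 in 4T1 and 648, 619, 657, 684 and 564 in 66cl4, where 4 of the 5 4T1 tumors lay below all 66cl4 tumors and tumor 2 above them.

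Cdkn1a (chr17:29090979-29100722, plus strand) encodes p21, which halts the cell cycle by binding cyclin-CDK complexes and is the classical p53 target. Its normalized counts were 258 to 577 (median 357) in 4T1 and 389 to 791 (median 529) in 66cl4 tumors. The ranges overlapped, with 13 of 19 4T1 tumors below every 66cl4 tumor. The difference was -0.54 ± 0.0786 (SE), adjusted p = 1.77e-07 (limma), with 1.59-fold more in 66cl4. Untreated 4T1 tumors (331, 358, 415 and 330.3) lay below untreated 66cl4 tumors (526, 496, 791, 486 and 630.0), and so did the chitin groups. With chitin + anti-PD-1 the groups overlapped, at 577, 489, 281, 259 and 380.1 in 4T1 and 448, 460.3, 479, 464 and 502 in 66cl4, and the difference of -0.23 (95% CI -0.55 to 0.08, adjusted p = 0.198) was not called by limma. With a weight estimated for each tumor it was called (-0.38, limma adjusted p = 0.0149). The 4T1 values there spanned more than the 66cl4 range of that group. Whether the difference itself changed with the combination was tested as an interaction, which gave 0.31 (95% CI -0.14 to 0.77, adjusted p = 0.962) by limma.

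Cdkn1b (chr6:134920401-134925525, plus strand), which encodes the CDK inhibitor p27, had normalized counts of 618 to 1285 (median 887) in 4T1 and 1183 to 1517 (median 1340.0) in 66cl4 tumors. Of the 4T1 tumors, 18 lay below every 66cl4 tumor, and the remaining one was untreated replicate 2, at 1285. The difference was -0.50 ± 0.0481 (SE), adjusted p = 1.69e-11 (limma), which is 1.46-fold more in 66cl4, and was called in all 4 treatments. The 66cl4 values were tight (coefficient of variation 7.29%, against 16.8% in 4T1), most of all with chitin, where they were 1250.2, 1273, 1254, 1255 and 1221.

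Cdkn2a (chr4:89274473-89294619, minus strand) gives rise to 2 unrelated proteins, the CDK4/6 inhibitor p16Ink4a and p19Arf, which share exons and are not separated in a count per gene. It was close to the detection limit, with 2 to 30 reads per tumor, fewer than 10 in 17 of the 39 tumors. Normalized counts were 9.46, 20.3, 10.9 and 7.86 in untreated 4T1 and 26.3, 11.5, 7.91, 11.6 and 22.7 in untreated 66cl4 tumors, and over all treatments 2.88 to 20.3 (median 10.9) and 3.26 to 32.1 (median 9.99). The ranges of the models overlapped almost entirely. The difference of -0.024 (95% CI -0.12 to 0.076, adjusted p = 0.656) was not called by limma. It was called lower in 4T1 after quantile normalization (-0.16, limma adjusted p = 0.00502) and had the opposite sign with a weight for each tumor (0.0024, limma adjusted p = 0.969), so that no direction is given. The VST flattens differences among so few reads, and on the log2(normalized count + 1) scale the difference was -0.091.

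Cdkn2b (chr4:89306289-89311032, minus strand), the adjacent gene, encodes the CDK4/6 inhibitor p15, and it was the 1 gene of the 10 that was higher in 4T1. Normalized counts were 14.2, 23.5, 35.5 and 30.1 in untreated 4T1 tumors, 36.0, 18.7, 35.8, 40.9 and 24.7 with anti-PD-1, 65.4, 37.9, 22.4, 27.8 and 26.2 with chitin, and 5.73, 23.1, 40.4, 35.6 and 7.00 with both. In 66cl4 tumors they ran from 3.56 to 22.0 (median 12.7). Of the 4T1 tumors 15 lay above every 66cl4 tumor, while 2 of those given chitin + anti-PD-1 were among the low values. The difference was 0.28 ± 0.0568 (SE), adjusted p = 2.99e-05 (limma), with 2.21-fold more normalized counts in 4T1, and 1.02 on the log2(normalized count + 1) scale, at 4 to 69 reads per tumor. Quantile normalization lowered it to 0.13 (limma adjusted p = 0.0451). The difference was 0.18 (95% CI -0.057 to 0.42, adjusted p = 0.188) in untreated tumors, which limma did not call. It was called with anti-PD-1 (0.31, 95% CI 0.082 to 0.54, adjusted p = 0.0177, limma) and chitin (0.41, 95% CI 0.18 to 0.64, adjusted p = 0.00211, limma). The former was lost without 4T1 anti-PD-1 replicate 4 (limma adjusted p = 0.0506) and after quantile normalization (0.10, limma adjusted p = 0.453). With both agents, the value (0.24, 95% CI 0.0089 to 0.46, adjusted p = 0.0705, limma) was called without 4T1 replicate 1 or 5 of that group (limma adjusted p = 0.0143 and 0.0194) and with tumor weights (0.37, limma adjusted p = 0.00139).

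With these 2 included, RefSeq annotates 34 genes within 500 kb of this stretch, 11 of which were in the table. Mtap, the neighbor on the other side of Cdkn2a and a gene often lost together with it, was at 2703 to 6431 normalized counts in 4T1 and 3397 to 4768 in 66cl4 tumors, which overlap. The noncoding gene Gm12602 lay at 52.4 to 109 in 4T1 and 26.8 to 64.2 in 66cl4, and Wincr1 at 2.57 to 29.6 and 0 to 10.7. Gm49890, also noncoding, lay at 76.8 to 176 and 71.4 to 143. The remaining 5 (Gm13289, Ifnz, Gm13275, Gm13285 and Gm13288) lie in the interferon cluster, where copies are alike and reads may be split between them. Mtap was at 2703 normalized counts or more in every tumor of both models, where Cdkn2a was low. Host cells are part of every sample and DNA copy number was not measured, so a loss of these genes in the tumor cells was not tested.

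The 2 apoptosis genes were both lower in 4T1. Bbc3 (chr7:16308398-16318334, plus strand) encodes PUMA, a BH3-only protein that neutralizes the survival members of the BCL-2 family. Normalized counts in 4T1 tumors were 118, 125, 91.1 and 94.4 untreated, 139, 108, 61.4, 115 and 124 with anti-PD-1, 93.9, 158, 111, 85.2 and 103 with chitin and 97.3, 76.4, 116, 131 and 67.6 with both. In 66cl4 tumors the values were 208, 233, 177, 222 and 192 untreated, 249, 216, 191, 255 and 205 with anti-PD-1, 189, 161, 303, 264 and 169 with chitin and 201, 187, 194, 216 and 197 with both. The models did not overlap, although the highest 4T1 tumor (chitin replicate 2, 158) and the lowest 66cl4 tumor (chitin replicate 2, 161) nearly met. The difference was -0.60 ± 0.0562 (SE), adjusted p = 8.68e-12 (limma), with 1.99-fold more in 66cl4, and was called in all 4 treatments.

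Bax (chr7:45461695-45466903, minus strand), the protein that perforates the outer mitochondrial membrane, had normalized counts of 412 to 677 (median 480.0) in 4T1 and 657 to 968 (median 773) in 66cl4 tumors. Only untreated 4T1 replicate 2, at 677, reached into the 66cl4 range, and within every treatment the groups did not overlap. The difference was -0.53 ± 0.0438 (SE), adjusted p = 3.27e-13 (limma), which is 1.55-fold more in 66cl4, and was called in all 4 treatments.

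Ccng1 (chr11:40748552-40755309, minus strand), the p53 target that encodes cyclin G1, had normalized counts of 341 to 796 (median 532) in 4T1 and 716 to 1033 (median 855) in 66cl4 tumors. A single 4T1 tumor (anti-PD-1 replicate 3) lay within the 66cl4 range, at 796. The difference was -0.59 ± 0.0563 (SE), adjusted p = 1.51e-11 (limma), with 1.60-fold more in 66cl4, and was called in all 4 treatments. Sesn2 (chr4:132492804-132510456, minus strand), a sestrin that restrains mTORC1 and responds to p53 and to ATF4, lay at 71.0 to 131 (median 103) and 98.2 to 162 (median 133). The ranges overlapped, with 6 4T1 tumors below every 66cl4 tumor. The difference of -0.19 ± 0.0393 (SE), adjusted p = 4.33e-05 (limma) corresponds to 1.27-fold more in 66cl4. It was called in untreated and chitin-treated tumors, and not with anti-PD-1 (-0.13, 95% CI -0.29 to 0.025, adjusted p = 0.14, limma) or chitin + anti-PD-1 (-0.059, 95% CI -0.22 to 0.10, adjusted p = 0.535, limma). Leaving out untreated 4T1 replicate 1 ended the untreated call (limma adjusted p = 0.0515), and leaving out 66cl4 anti-PD-1 replicate 5 gave a call with anti-PD-1 (limma adjusted p = 0.0317), as did quantile normalization (-0.21, limma adjusted p = 0.0120).

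The comparison of the models was repeated within each treatment. In untreated tumors 7 of the 10 genes were called lower in 4T1 and 0 higher, beside 27.1% and 28.7% of all genes. With anti-PD-1 the counts were 7 lower and 1 higher (27.7% and 31.1% of all genes), with chitin 7 and 1 (29.2% and 29.9%), and with chitin + anti-PD-1 5 and 0 (27.8% and 29.1%). Trp53, Cdkn1b, Bbc3, Bax and Ccng1 were called lower in each of the 4. The values of the 2 models did not overlap for 6 genes in untreated tumors, all with 4T1 below (20.7% of all genes had 4T1 below and 22.3% above). The numbers below were 4 with anti-PD-1 (19% and 20.8% of all genes below and above), 7 with chitin (19.9% and 21.7%) and 5 with chitin + anti-PD-1 (20.7% and 22.0%), and Cdkn2b with chitin was the 1 gene above.

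**Figure D2:**
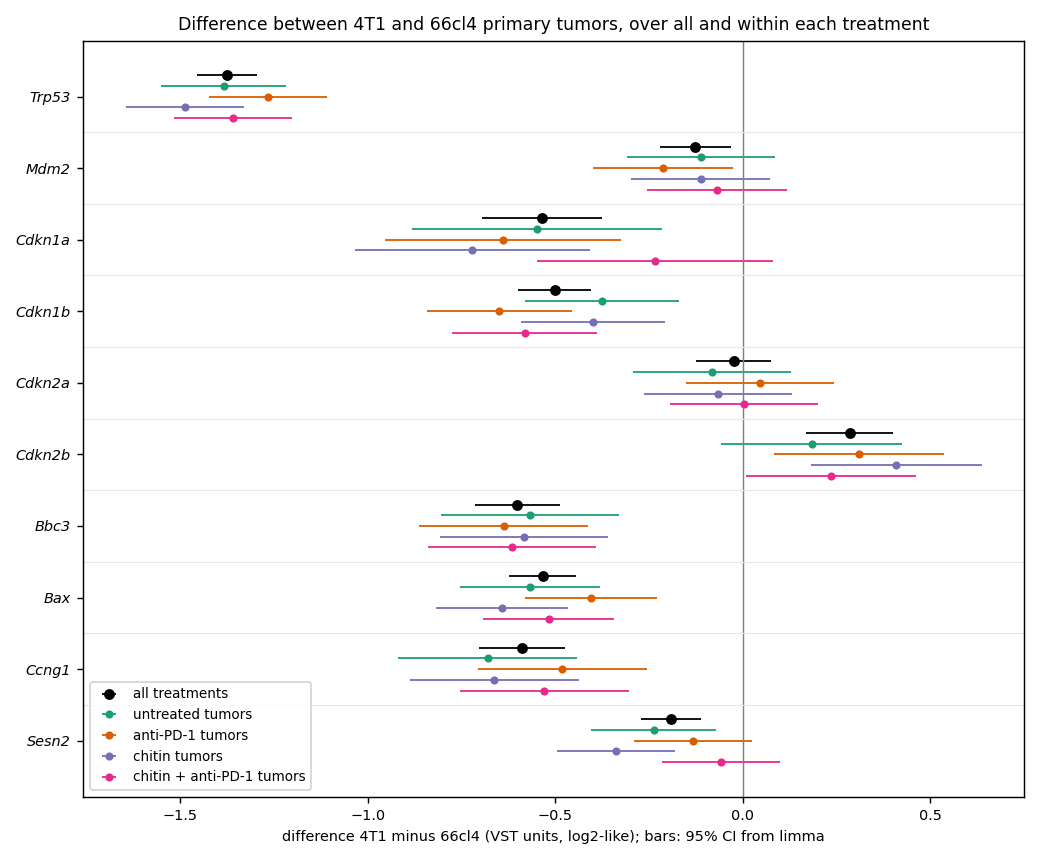
Difference between 4T1 and 66cl4 tumors (4T1 minus 66cl4, VST units) for the 10 genes, over all treatments (black) and within each treatment (colors), with 95% confidence intervals from limma. Trp53 lies at -1.37 over all treatments, Cdkn2b at 0.28, and the interval of Cdkn2a spans 0.

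Levels per length put the 10 genes in order. The length was the union of all annotated exons of a gene, and the exons that the authors counted are not given. The order between genes therefore depends on this choice of length, whereas a comparison of the models for 1 gene does not. On the RPKM scale (reads scaled to the exon length of the gene and to all assigned reads of the tumor, mean ± SD over tumors, n = 19 for 4T1 and 20 for 66cl4), Bax was the highest in both models, at 41.4 ± 6.64 and 67.5 ± 6.85. In 66cl4 tumors Trp53 followed (48.8 ± 4.36), then Cdkn1b (39.7 ± 2.89), Ccng1 (32.9 ± 3.67), Cdkn1a (21.7 ± 4.35), Mdm2 (16.6 ± 1.29) and Bbc3 (13.4 ± 2.01). In 4T1 tumors the order after Bax was Cdkn1b (25.7 ± 4.12), Ccng1 (19.6 ± 3.86), Trp53 (15.5 ± 1.59), Mdm2 (14.2 ± 1.84), Cdkn1a (12.9 ± 2.93) and Bbc3 (6.41 ± 1.57). In 4T1 tumors the ranges of each pair of neighbors in this order overlapped, Trp53, Mdm2 and Cdkn1a among them, whereas in 66cl4 the RPKM of Trp53 exceeded those of Mdm2 and Cdkn1a in every tumor. Sesn2 (3.85 ± 0.704 in 4T1 and 5.13 ± 0.775 in 66cl4) had a higher mean than Cdkn2b (2.67 ± 1.22 and 1.26 ± 0.492) and Cdkn2a (1.22 ± 0.603 and 1.43 ± 0.895), and the latter 2 overlapped in both models. In 66cl4 tumors the neighbors that did not overlap were Bbc3 and Sesn2, and Sesn2 and Cdkn2a. The coefficient of variation of the normalized counts was larger in 4T1 than in 66cl4 for 9 of the 10 genes, the exception being Cdkn2a, as it was for 86.4% of all genes with reads in both models.

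The treatments were compared within each model next, to ask whether chitin, anti-PD-1 or both shifted these genes. None of the 10 was called in any of the 12 treatment comparisons (5 pairs of groups and chitin-containing against chitin-free groups, in each model), where 0% of all genes passed the limma test, 367 to 2238 genes had an unadjusted p below 0.05, and limma-voom on the recovered reads called 0 genes in each. The comparisons share groups and are not independent of each other. Of the 120 values for the 10 genes, 11 had an unadjusted p below 0.05, and differences ran from -0.33 to 0.27 VST units. The 95% confidence intervals of all 120 lay between -0.60 and 0.55.

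In 4T1 tumors, Bax gave a difference of -0.20 (95% CI -0.35 to -0.053, adjusted p = 0.58) between chitin-containing and chitin-free groups by limma. Its normalized counts were 564, 677, 480.0 and 470.5 untreated, 570.5, 503, 485, 653 and 607 with anti-PD-1, 426, 412, 443, 467 and 539.7 with chitin and 552, 480.0, 456, 422 and 466 with both, and these groups overlapped. With a weight estimated for each tumor it was called (-0.25, limma adjusted p = 0.0440), as was the difference between chitin + anti-PD-1 and anti-PD-1 (-0.27, limma adjusted p = 0.0213). Cdkn1b was at 1085, 1285, 1000.1 and 885 in untreated and 863, 931, 827, 618 and 939 in anti-PD-1-treated 4T1 tumors, a difference of -0.31 (95% CI -0.58 to -0.034, adjusted p = 0.531) by limma with overlap of 885 to 939. Cdkn2a had 19.3, 12.0, 12.8, 14.5 and 18.7 normalized counts with anti-PD-1 and 3.27, 2.88, 15.2, 9.38 and 7.00 with chitin + anti-PD-1. The difference was -0.22 (95% CI -0.40 to -0.048, adjusted p = 0.439) by limma. It rests on 2 to 25 reads per tumor.

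In 66cl4 tumors, Cdkn1a was lowest with chitin + anti-PD-1, where its normalized counts were 448, 460.3, 479, 464 and 502. They were 555, 532, 709, 680.1 and 660.2 with chitin and 647, 521, 735, 780.1 and 389 with anti-PD-1. All chitin + anti-PD-1 tumors lay below all chitin tumors, as was so for 0.384% of all genes, and overlapped the anti-PD-1 group. The comparison was picked from 120 values for its low unadjusted p, so this share does not measure how rare the separation is. The differences, -0.33 (95% CI -0.60 to -0.063, adjusted p = 1) and -0.28 (95% CI -0.56 to -0.015, adjusted p = 0.579), were not called by limma. Cdkn1b was at 1458, 1517, 1244, 1476 and 1352 untreated and 1250.2, 1273, 1254, 1255 and 1221 with chitin, which overlap, and differed by -0.15 (95% CI -0.27 to -0.038, adjusted p = 0.284) in the limma fit. Bax gave -0.21 (95% CI -0.37 to -0.051, adjusted p = 0.351) and Cdkn2a -0.22 (95% CI -0.44 to -0.0077, adjusted p = 0.462) for chitin + anti-PD-1 against untreated tumors, and Sesn2 -0.17 (95% CI -0.32 to -0.0085, adjusted p = 1) for chitin + anti-PD-1 against chitin, all by limma. Over the 6 comparisons in 66cl4, Trp53 gave differences of -0.090 to 0.067 VST units and Mdm2 of -0.043 to 0.013, and none was called.

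Whether a treatment acted differently on the 2 models was tested as an interaction in 4 comparisons. The effect of chitin-containing treatment differed for 0.0978% of all genes (14 genes) and for none of the 10, and the effects of the single agents and of their combination against untreated tumors each differed for 0% of all genes (limma). At an unadjusted p below 0.05, 782 to 1887 genes passed per comparison and 0 of the 40 values of the 10 genes did; limma-voom called 0 to 17 genes. The interaction values of the 10 genes ran from -0.27 (Cdkn1b, anti-PD-1) to 0.31 (Cdkn1a, chitin + anti-PD-1), and the 95% confidence intervals reached from -0.63 to 0.77.

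**Figure D3:**
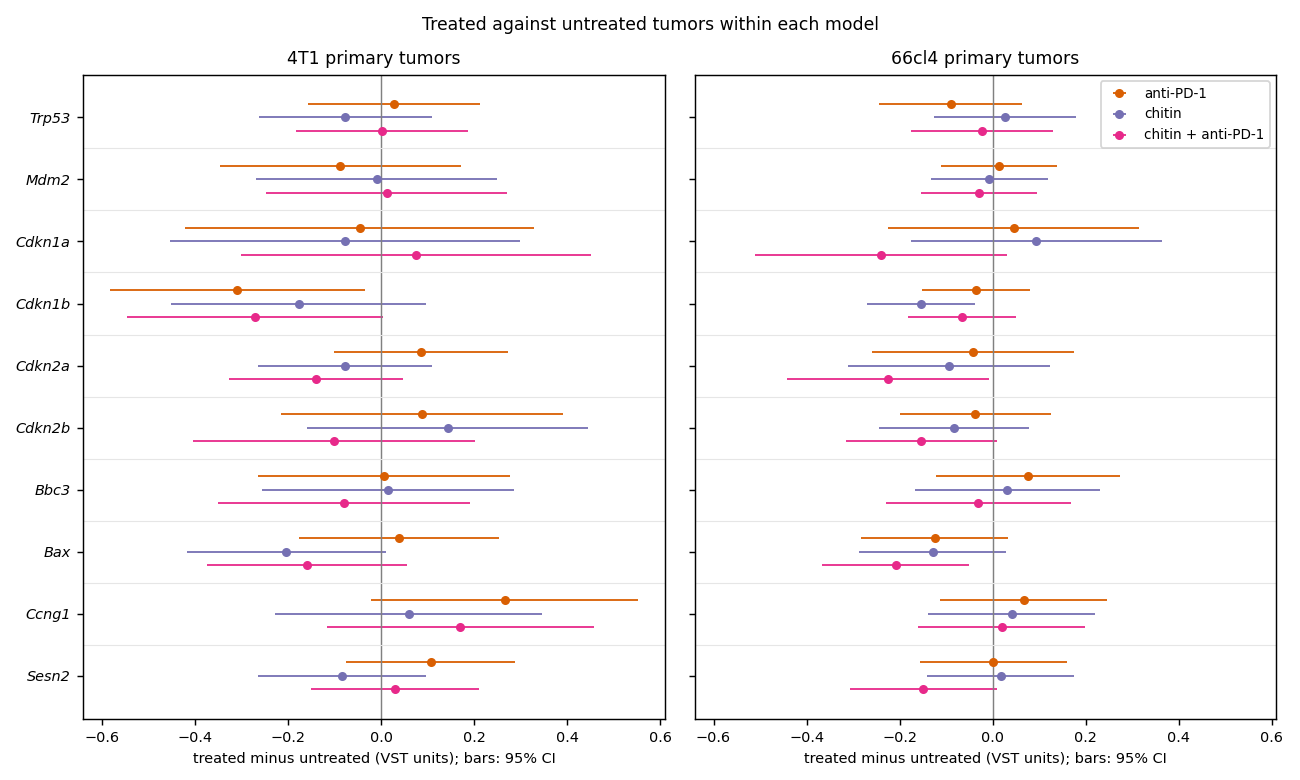
Difference of each of the 3 treatments from untreated tumors (VST units) for the 10 genes in 4T1 (left) and 66cl4 (right) tumors, with 95% confidence intervals from limma. Points lie between -0.31 and 0.27, and none passed the adjusted threshold.

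The 10 genes were then related to each other across the tumors of each model, since p53 targets could vary together. For the 45 pairs in each model, Pearson's r ran from -0.66 to 0.54 in 4T1 (n = 19) and -0.58 to 0.56 in 66cl4 tumors (n = 20), with medians of -0.024 and 0.088, and 48 of the 90 values were above 0. None of the 90 passed after Benjamini-Hochberg adjustment, and 19 had an unadjusted permutation p below 0.05. Cdkn1a and Cdkn2a in 4T1 had the r farthest from 0 (r = -0.66, rho = -0.62, permutation p = 0.00215 for r and 0.00524 for rho, adjusted p = 0.15 and 0.0943 over 90 pairs), which was -0.67 without the 2 tumors farthest from the median of Cdkn1a. Next came Cdkn1b with Ccng1 in 4T1 (r = -0.64, rho = -0.69, permutation p = 0.00341 for r and 0.00141 for rho, adjusted p = 0.15 and 0.0634 over 90 pairs, -0.55 without the 2 farthest tumors) and Cdkn1a with Bbc3 in 4T1 (r = -0.62, rho = -0.70, permutation p = 0.005 for r and 0.00126 for rho, adjusted p = 0.15 and 0.0634 over 90 pairs, -0.77 without the 2 farthest tumors). In all 3 pairs, tumors high in 1 gene tended to be low in the other. The pair with Cdkn2a rests on 2 to 25 Cdkn2a reads per 4T1 tumor, close to the detection limit.

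Trp53 and its targets Mdm2, Cdkn1a, Bbc3, Bax, Ccng1 and Sesn2 gave r between -0.11 and 0.10 in 4T1 tumors. The value for Bax moved with the setting: it was -0.11 in all 19 tumors and -0.41 without the 2 farthest from the median of Trp53. On residuals from the group means, with all 19 tumors, it was -0.38. In 66cl4 tumors the values ran from that for Sesn2 (r = -0.45, rho = -0.50, permutation p = 0.0451 for r and 0.0256 for rho, adjusted p = 0.226 and 0.214 over 90 pairs) to that for Bax (r = 0.30, rho = 0.37, permutation p = 0.191 for r and 0.11 for rho, adjusted p = 0.55 and 0.349 over 90 pairs). No pair of Trp53 with these targets passed the adjusted threshold in either model. Mdm2 and Cdkn1a had a positive r in both 4T1 (r = 0.53, rho = 0.48, permutation p = 0.0177 for r and 0.0398 for rho, adjusted p = 0.199 and 0.256 over 90 pairs) and 66cl4 (r = 0.42, rho = 0.46, permutation p = 0.0707 for r and 0.0458 for rho, adjusted p = 0.303 and 0.266 over 90 pairs). Without the 2 farthest tumors r was 0.48 and 0.45.

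**Figure D4:**
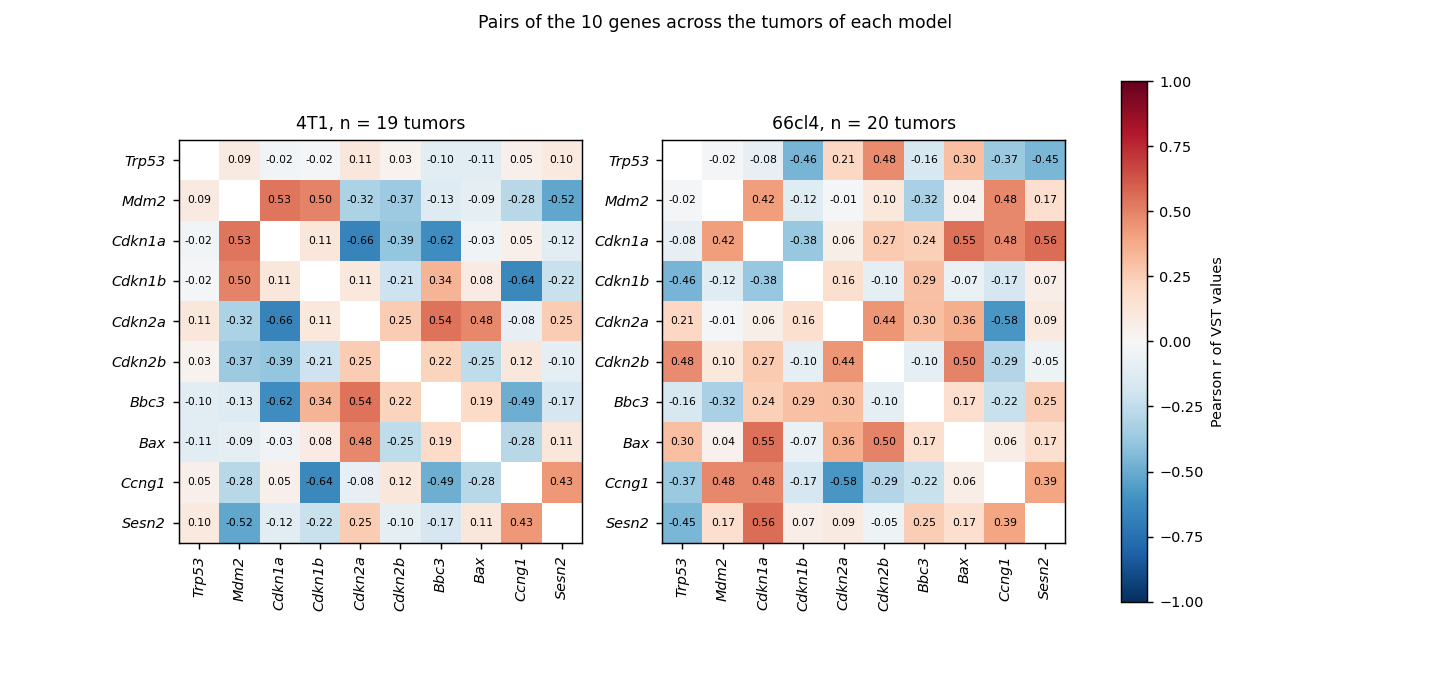
Pearson r of the VST values for each pair of the 10 genes across 19 4T1 tumors (left) and 20 66cl4 tumors (right), from blue (-1) to red (1). Cdkn1a with Cdkn2a in 4T1 has the value farthest from 0, at -0.66, with 2 to 25 Cdkn2a reads per tumor. No pair passed the adjusted threshold.

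As a description, the genes that varied most like each of the 10 were found by Pearson's r over the residuals from the 8 group means (39 tumors, which share library depth and cell makeup). Mdm2 was most like Eif5 (0.86), Tiparp (0.81) and Fam76b (0.80), and Bbc3 most like Phlda1 (0.86), Tle5 (0.85) and Eva1c (0.83). Cdkn1a led with Ssr3 (0.79), Bax with Ap1s1 (0.78), Cdkn1b with Bmi1 (0.77), Ccng1 with Gpr176 (0.75), Cdkn2b with Dkk2 (0.69), Sesn2 with Ganc (0.68), Trp53 with Ctc1 (0.63) and Cdkn2a with Tpra1 (0.62). Among the 3 nearest genes, Zmat3 (for Ccng1, 0.71) belongs to the list of other p53 targets, and Mcl1 (for Sesn2, 0.62) to the BCL-2 family.

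The remaining genes of the pathway were counted in the same comparison of 4T1 with 66cl4 tumors (38.0% of all genes lower, 40.8% higher). Of 24 other direct p53 targets in the table, 12 were lower and 9 higher in 4T1, with a median of -0.10 VST units. Among those lower were Sesn1, a second sestrin (-1.54 ± 0.102, adjusted p = 9.88e-16 by limma; normalized counts 87.5 to 454 in 4T1 and 557 to 1263 in 66cl4), Plk2, a stress-induced kinase (-0.88 ± 0.0856, adjusted p = 2.02e-11 by limma), and Zmat3, an RNA-binding p53 target (-0.81 ± 0.0504, adjusted p = 1.45e-16 by limma; 86.3 to 233 in 4T1 and 239.9 to 389.8 in 66cl4). Perp, a desmosomal membrane protein, was the highest (3.28 ± 0.101, adjusted p = 2.31e-25 by limma; 376 to 1398 in 4T1 and 0 to 15.3 in 66cl4), followed by Ei24 (1.48 ± 0.0596) and the kinase Plk3 (0.58 ± 0.0572). Sesn1, Zmat3 and Trp53 itself were thus lower in 4T1 while Perp, which is also an epithelial junction gene, was near 0 in 66cl4. The genes named were ordered by VST units, which flatten differences at low counts. By mean normalized counts Eda2r was 4.23-fold higher in 66cl4 and Sesn1 3.76-fold. Eda2r lay at 5.35 to 47.3 in 4T1 and 37.0 to 93.9 in 66cl4, and differed by -0.70 ± 0.0664 VST units. In p53 regulators, 6 of 13 were lower and 6 higher (median -0.019), led by the acetyltransferase Ep300 (-0.49 ± 0.0495), Hipk2 (-0.36 ± 0.0703) and Chek2 (-0.26 ± 0.0424) among the lower, and by the checkpoint kinase Chek1 (0.75 ± 0.0876), Usp10 (0.55 ± 0.0449) and Rchy1 (0.46 ± 0.0444) among the higher. Trp63, the p53 relative of basal epithelium, was lower in 4T1 (-0.81 ± 0.109, adjusted p = 3.41e-08 by limma), at 0.948 to 132 in 4T1 and 55.5 to 188 in 66cl4.

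Of the 4 other genes listed as CDK inhibitors by their symbol (Cdkn), 3 were lower in 4T1 and 0 higher (median -0.25). A shared symbol does not mean a shared function. The lower ones were Cdkn2c, which encodes p18 (-0.77 ± 0.0652, adjusted p = 6.07e-13 by limma), Cdkn3 (-0.34 ± 0.0599) and Cdkn2d (-0.16 ± 0.0534). Normalized counts of Cdkn2c were 475 to 1016 in 4T1 and 1046 to 1496 in 66cl4. Cdkn1c, at 4.69 to 38.5 in 4T1 and 2.67 to 15.5 in 66cl4, did not pass. Of 15 genes of the G1 machinery, 7 were lower and 4 higher (median -0.091), with Rb1 (-0.60 ± 0.0686), Ccnd2 (-0.57 ± 0.0743) and Ccnd1 (-0.55 ± 0.104) the lowest and Cdk4 (0.34 ± 0.0551), E2f4 (0.23 ± 0.054) and Rbl2 (0.16 ± 0.0464) the highest. Rb1 encodes the brake on S phase entry that D cyclins release through CDK4 and CDK6, and the remaining D cyclin gene, Ccnd3, differed by 0.11 ± 0.0465. Among 12 proliferation markers 6 were lower and 1 higher.

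The other members of the BCL-2 family mostly went the other way from Bbc3 and Bax. Of 14, 9 were higher and 2 lower in 4T1 (median 0.33), beside 40.8% and 38.0% of all genes. The 9 include the near-identical copies Bcl2a1a, Bcl2a1b and Bcl2a1d, which are not independent of each other. Higher were Bok (1.24 ± 0.0732, adjusted p = 3.58e-17 by limma; normalized counts 252 to 925 in 4T1 and 97.6 to 181 in 66cl4), the BH3-only gene Bmf (0.88 ± 0.134) and Bcl2a1a (0.73 ± 0.071), whose near-identical copies Bcl2a1b and Bcl2a1d may share reads with it. Lower were the survival genes Mcl1 (-0.31 ± 0.0349) and Bcl2l1 (-0.25 ± 0.0574). Bcl2a1a is expressed in neutrophils and other leukocytes, and 8 of 9 neutrophil markers were higher in 4T1 (summed normalized counts 1866 to 10877, against 1221 to 3083). The part of cell makeup in these differences was not tested. Of 10 genes of the ATF4 stress response, under which Sesn2 also falls, 5 were lower, with Psat1 (-0.83 ± 0.111), Asns (-0.58 ± 0.0766) and Ppp1r15a (-0.43 ± 0.0831) the lowest, and 4 higher, with Ddit4 (2.01 ± 0.122, adjusted p = 8.75e-17 by limma), Atf3 (0.79 ± 0.105) and Trib3 (0.70 ± 0.096) the highest.

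**Figure D5:**
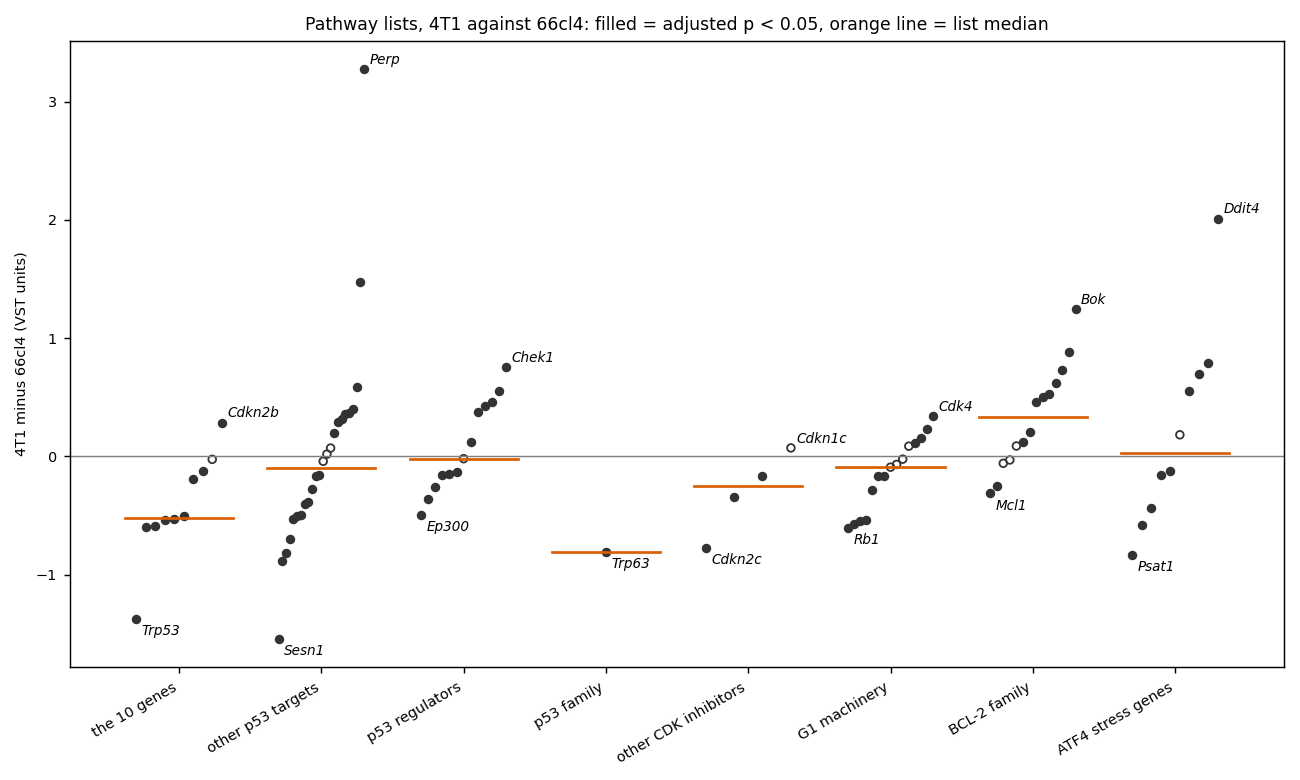
Difference between 4T1 and 66cl4 tumors (4T1 minus 66cl4, VST units) for each gene of 8 lists, with filled points for an adjusted limma p below 0.05 and the list median as an orange line. The 10 genes have a median of -0.52, the BCL-2 family 0.33, and the lowest and highest gene of each list are named.

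Cell type markers moved with the model beside every difference above. Summed normalized counts of the 10 epithelial markers were 17016 to 64455 in 4T1 and 3404 to 6207 in 66cl4 tumors, and those of the 10 macrophage markers 5653 to 36576 and 28587 to 52471. Those of 10 fibroblast markers were 4851 to 177781 and 8085 to 18984, with 6 markers higher and 2 lower in 4T1, and 7 of 9 T-cell, 8 of 10 endothelial, 6 of 8 adipocyte and 8 of 10 skeletal muscle markers were higher. Of 3 B-cell markers 0 differed, and 4 of 5 markers of lactating epithelium were higher. Their part in the differences of the 10 genes was not tested. As each model is 1 cell line, line, cell makeup and number of cells inoculated cannot be told apart. The paper inoculated fewer 4T1 than 66cl4 cells.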

How the data were processed

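Primary tumors of the 8 groups were profiled by bulk RNA-seq. The authors prepared stranded libraries, sequenced paired reads of 150 bases, aligned them with HISAT2 to mm10 and counted reads per gene. They removed genes that did not exceed 10 reads in 10% of the tumors or more, and deposited DESeq2 variance-stabilized (VST) values, which are on a log2-like scale. Tool versions and the gene annotation are not given in the sources used here. Every sample column of the table was used (0 left out).

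The values were turned back into reads: 100% came out whole within 0.001 reads. The VST value of 0 reads is 6.05, so that differences are flattened, most of all at few reads but also at moderate counts. Between the models, Sesn2 differed by -0.19 VST units and by -0.35 on the log2(normalized count + 1) scale. For Bbc3 these values were -0.60 and -1.01, and for Trp53 -1.37 and -1.58. Normalized counts are these reads divided by the size factors behind the deposited values, and RPKM used exon lengths of GENCODE M21 and reads assigned to genes. Precision is limited by 5105898 to 14800352 reads per tumor.

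Differences were tested on the VST values with limma 3.58.1 (R 4.3.3, trend), with Benjamini-Hochberg adjustment over 14318 genes and a two-sided adjusted p below 0.05, in 21 comparisons: models in a fit of all 8 groups, treatments in a fit per model, and interactions in the fit of 8 groups. The authors' reads were not tested as a count model except by limma-voom as an alternative. Correlations between genes used two-sided permutation tests with 100000 resamples (Python 3.11.15, scipy 1.17.1). Scripts were tested on simulated data.

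The labels give each sample as a separate tumor, so p-values measure the spread between tumors. They do not give the mouse of a tumor. The paper inoculated a pair of mammary glands per mouse, so tumors of a group may come from the same mouse. The tests treat all tumors as independent, and p-values would be too low if tumors of a mouse are alike. Groups came from the sample titles. Same-numbered tumors of different groups did not deviate together in the median (r 0.0088, from -0.39 to 0.54, over 133 pairs). For 532 pairs of other numbers the median was -0.0057 (from -0.57 to 0.68). With this spread, a weak or partial pairing would not show, and tumors within a group were not compared. Alternatives were another gene filter, variance prior, scaling, value scale, tumor weights, fit, block, and leaving out each tumor. The 10 genes, the gene lists and the tests were chosen with earlier results of these data known. All 10 genes were named, with up to 3 genes per list and direction by size of the called difference in VST units. Eda2r was added for its normalized counts. The 3 genes most like each of the 10 were found, of which the first is given, or all 3 for the 2 with the highest r. Promoter windows, gene positions and genes near Cdkn2a came from RefSeq (GRCm38.p6).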

Additional observations from a re-analysis of the deposited data

Results flagged for a closer look

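A single tumor stood apart from the rest of its group in 2 of the 80 sets tested (10 genes in 8 groups), by the ratio of its gap to the range of the group at the 95% level. Chance alone sets off about 1 in 20 such sets. The VST value of Mdm2 in 4T1 chitin tumor 2 was 9.18 (456 normalized counts), where the other 4 tumors lay between 9.47 and 9.53. In 4T1 anti-PD-1 tumor 3, Ccng1 had a VST value of 9.85 (796 normalized counts), and the other 4 tumors lay between 9.36 and 9.45.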

How the results depend on the processing

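Over all treatments, 422 of 422 values for the 9 called genes under other settings kept their direction and call, and Cdkn2a changed in 2: quantile normalization called it lower in 4T1 (-0.16, limma adjusted p = 0.00502), and tumor weights gave the opposite sign (0.0024). The difference of Cdkn2b fell from 0.28 to 0.13 with quantile normalization. The count of the 10 genes called moved by more than 1.5 times with tumor weights alone, to 1 (Bax) in 4T1 chitin-containing against other groups and 1 (Bax) in 4T1 chitin + anti-PD-1 against anti-PD-1. Between the models, tumor weights also called Cdkn1a and Cdkn2b with chitin + anti-PD-1, quantile normalization ended the call of Cdkn2b and gave one of Sesn2 with anti-PD-1, a fit of the compared groups alone ended that of Mdm2 with anti-PD-1, and single tumors changed the calls of Mdm2, Cdkn2b and Sesn2 given above. With the tumor number as replicate block, 9 of the 10 genes were called over all treatments, 0 in each treatment comparison, and 7 in place of 8 with anti-PD-1 (Mdm2, limma adjusted p = 0.0530). Same-numbered tumors of different groups were no more alike in the median than others, which would not show a weak or partial pairing. Another scaling moved the median of all genes by under 0.1.

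Over all genes, the treatment comparisons (0 called) and interactions (14 called for chitin-containing treatment, 0 for the others) moved as follows; the cause was not tested. Without the lowest 25% of genes, 6 were called in 66cl4 chitin-containing and 8 in the chitin-containing interaction. Quantile normalization gave 2 in 4T1 chitin + anti-PD-1 against anti-PD-1 and 39 in the chitin-containing interaction. Tumor weights gave 297 in 4T1 chitin-containing, 960 in 4T1 anti-PD-1 against untreated, 2127 in 4T1 and 2 in 66cl4 chitin + anti-PD-1 against anti-PD-1, 185 in 66cl4 chitin-containing, 1004 in the chitin-containing and 331 in the anti-PD-1 interaction. The replicate block gave 1 in 4T1 chitin + anti-PD-1 against untreated and 1 against anti-PD-1, 16 in 66cl4 chitin-containing, 2 in 66cl4 chitin and 7 in 66cl4 chitin + anti-PD-1 against untreated, and 104 in the chitin-containing interaction. With both models in 1 fit there were 58 in 4T1 chitin-containing, 60 in 4T1 anti-PD-1 against untreated, 3, 5 and 294 in 4T1 chitin + anti-PD-1 against untreated, chitin and anti-PD-1, and 1 each in 66cl4 chitin-containing and chitin + anti-PD-1 against anti-PD-1.

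Leaving out 1 tumor at a time gave 0 to 1 in 4T1 chitin-containing, 0 to 80 in 4T1 anti-PD-1 against untreated and 0 to 202 in 4T1 chitin + anti-PD-1 against anti-PD-1 (each highest without 4T1 anti-PD-1 replicate 2), 0 to 2 in 4T1 chitin + anti-PD-1 against chitin, 0 to 269 in 66cl4 chitin-containing and 0 to 25 in 66cl4 chitin against untreated (both highest without 66cl4 untreated replicate 3), and 0 to 3 in 66cl4 chitin + anti-PD-1 against untreated and against anti-PD-1. The interactions gave 0 (without 4T1 untreated replicate 5) to 677 (without 4T1 anti-PD-1 replicate 2) for chitin-containing treatment, 0 to 86 for anti-PD-1 and 0 to 1 for chitin. None of the pairs of genes passed on the log2(normalized count + 1) scale or as residuals from the group means. Depth limits Cdkn2a (2 to 30 reads) and Cdkn2b (4 to 69 reads).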
